A study of Mus musculus with 90 samples.

Results

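The mitochondrial machinery of oxidative phosphorylation is built from proteins of both genomes of the cell, and the nuclear share of it was followed here in mouse liver. The genes were taken by symbol: nuclear protein-coding genes starting with Nduf, Uqcr, Atp5, Cox4, Cox5, Cox6, Cox7 or Cox8, and Sdha, Sdhb, Sdhc and Sdhd. This gave 93 of the 24475 genes in each count table. By complex they were 36 subunits and 8 assembly factors of complex I, 4 subunits of complex II, 8 of complex III, 20 of complex IV and 17 of complex V. Ndufa4 and Ndufa4l2 were counted with complex IV despite their symbols. Another 3 genes under the rule (Ndufb1, Ndufb4b and Ndufb4c) were not analysed here, and 19 pseudogenes were left out. The labels were checked against the levels of the targeted genes, which were lower in every library of the group named for them than in any library of its control group.

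Each of 9 groups held 10 liver libraries. In experiment 1, short hairpin RNAs were delivered to mouse liver by AAV8, a liver-tropic adeno-associated virus, and the groups were a Control and knockdowns (KD) of the glucagon receptor (Gcgr KD), of the stimulatory G protein gene Gnas (Gnas KD), of protein kinase A (PKA KD) and of Epac2 (Epac2 KD), another cAMP effector. Experiment 2 crossed a KD of Prkar1a, which encodes an inhibitory regulatory subunit of PKA, with an antibody (mAb) blocking the receptor, each beside its own control. Those groups were Control AAV + Control mAb, Control AAV + Gcgr mAb, Prkar1a KD + Control mAb and Prkar1a KD + Gcgr mAb. The labels leave out strain, age, dose, the promoter driving each hairpin and the time after injection. They do not say either that each library came from a separate mouse, and a p-value here reflects library-to-library spread, which may be technical.

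As background, complex I and complex II pass electrons from NADH and succinate to ubiquinone, complex III passes them on to cytochrome c, and complex IV hands them to oxygen. The proton gradient made by complexes I, III and IV drives complex V, the ATP synthase. In liver this ATP pays for gluconeogenesis and urea synthesis, which glucagon stimulates through its receptor, the G protein and cAMP, with PKA and Epac2 as cAMP effectors. Transcription of the nuclear subunit genes is known to depend on NRF1, GABP, ERR and YY1 factors and on the coactivator PGC-1alpha (Ppargc1a).

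Library totals ranged from 20.8 M to 33.7 M counts in experiment 1 and from 8.9 M to 19.5 M in experiment 2. Levels are CPM (counts scaled by TMM library size), and changes are log2 fold changes ± SE from edgeR's quasi-likelihood test, called at a Benjamini-Hochberg adjusted p under 0.05 over 13574 genes in experiment 1 and 12847 in experiment 2. Of the 93 genes, 87 and 88 passed the filter on low counts. In 10 libraries the profile stood apart from that of its group, and in 5 of these the median of the tested genes among the 93 was also shifted upward, by 0.36 to 0.48 on the log2 scale: PKA KD replicate 3, Epac2 KD replicate 5, Control AAV + Control mAb replicates 2 and 10, and Control AAV + Gcgr mAb replicate 3. In the same 5 libraries other genes with exons under 1000 bases were shifted upward as well, by 0.24 to 0.50. Of the 87 genes 42 have exons under 1000 bases in all. Counts are therefore also given without these 10 libraries, and with a short-gene covariate, where that matters. That covariate was measured from the mean over all libraries of an experiment. It thus also took up short-gene differences between groups, and cannot separate them from differences between libraries. In bulk liver RNA fewer cells of a type and less RNA per cell cannot be told apart.

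Per kilobase of exon, the highest levels in the Control livers of experiment 1 were those of Atp5b, the catalytic beta subunit of complex V, at 475 ± 10.4 CPM per kb (SD, n = 10), Cox4i1, a regulatory nuclear subunit of complex IV, at 386 ± 31.4 CPM per kb, and Cox6a1 at 321 ± 42.2 CPM per kb. Assembly factors of complex I stood near the other end, with Ndufaf5 at 2.40 ± 0.542 CPM per kb and Ndufaf4 at 3.35 ± 0.348 CPM per kb. The isoforms known from other tissues were lower still. Cox7a1, the heart and muscle isoform of subunit 7a, stood at 1.78 ± 0.619 CPM per kb, and the lung isoform Cox4i2, the muscle isoforms Cox6a2 and Cox8b and the testis isoform Cox6b2 lay between 0.0723 and 0.159 CPM per kb, while Cox7b2 and Cox8c had 0 counts in all 90 libraries. Summed over the 93 genes, the Control libraries ranged from 8999 to 10446 CPM (median 9660), of which complex V supplied a median of 3467 CPM, complex I 2533 CPM, complex IV 1575 CPM, complex III 1030 CPM and complex II 945 CPM.

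**Figure D1:**
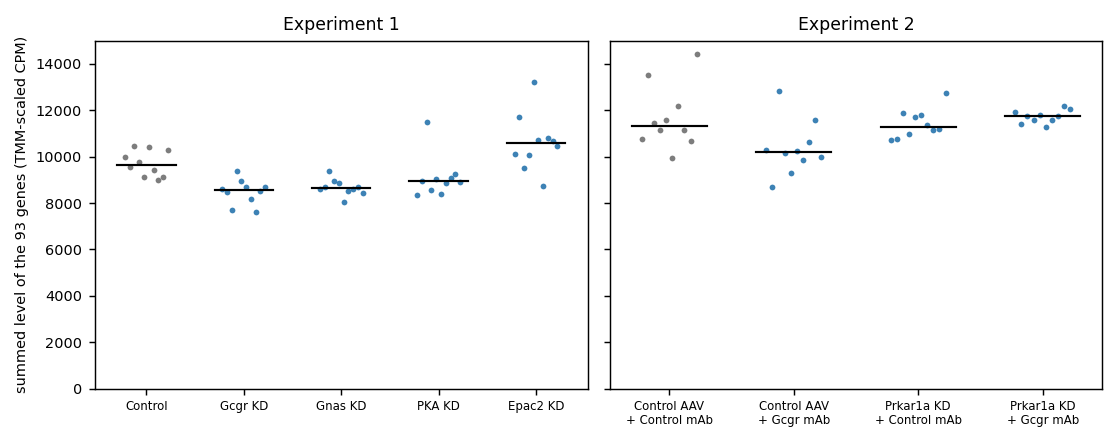
Summed level of the 93 genes in TMM-scaled CPM in each library (points, 10 per group) with the group median (line), by group, for both experiments. Gcgr KD libraries lay between 7633 and 9387 CPM against 8999 to 10446 CPM in Control, and Control AAV + Gcgr mAb between 8713 and 12829 CPM against 9948 to 14422 CPM in Control AAV + Control mAb.

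Knockdown of the glucagon receptor lowered oxidative phosphorylation transcripts of all 5 complexes by small amounts. With Gcgr KD, 25 of the 87 tested genes fell and 0 rose, beside 4.33% of all genes falling and 2.90% rising. The median log2 fold change was -0.187, against 0.013 over all genes. Falls were spread over complex I (10 of 36), complex II (1 of 4), complex III (4 of 8), complex IV (3 of 14) and complex V (7 of 17), while the 8 assembly factors had a median of -0.049 and no call by edgeR. Among those with exons under 1000 bases 9 of 42 fell, and among longer ones 16 of 45, with medians of -0.199 and -0.182. Other short genes had a median of -0.05.

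Atp5b ranged over 670 to 859 CPM (median 785) with Gcgr KD and 884 to 940 CPM (median 912) in Control, a change of -0.22 ± 0.05 (adjusted p = 0.00198). Every knockdown library was below every control library. In complex III, Uqcrfs1, the Rieske iron-sulphur protein, was found at 97.9 to 124 CPM (median 113) with Gcgr KD and 123 to 149 CPM (median 133) in Control (-0.24 ± 0.06, adjusted p = 0.00319). The core protein Uqcrc2 was lower by 0.28 ± 0.06 on the log2 scale (adjusted p = 0.0025), and its partner Uqcrc1 changed by -0.18 ± 0.05 (adjusted p = 0.0166). In both, all 10 knockdown libraries were below the control median. The largest called fall was that of Atp5md, a small subunit of the ATP synthase dimer, at 15.8 to 29.2 CPM (median 21.1) against 23.1 to 35.3 CPM (median 27.7) (-0.44 ± 0.12, adjusted p = 0.0118).

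Core subunits did not all pass the test. Ndufs1, an iron-sulphur subunit of complex I, and Atp5a1, the alpha subunit of complex V, fell by 0.19 ± 0.06 and 0.17 ± 0.05 on the log2 scale (adjusted p = 0.0463 and 0.017), as did Cox4i1 (-0.22 ± 0.07, adjusted p = 0.0437). For Ndufv1, the NADH-binding subunit, the change was -0.18 ± 0.08 (adjusted p = 0.136), and for Sdha and Sdhb, the flavoprotein and iron-sulphur subunits of complex II, -0.11 ± 0.06 and -0.21 ± 0.08 (adjusted p = 0.267 and 0.117). Cox5a changed by -0.09 ± 0.06 (adjusted p = 0.451). Without the libraries that stood apart, 44 genes fell and 0 rose, while calls in either direction over all genes went from 981 to 1474. Of the libraries left out, only Gcgr KD replicate 5 was in this comparison. Without it alone 27 genes fell and 0 rose, with 1047 calls over all genes. The 6 hepatocyte markers summed to 58730 to 89756 CPM with Gcgr KD against 78604 to 108737 CPM in Control, with 1 of 6 called as lower. The 6 cholangiocyte markers summed to 26.7 to 196 CPM against 28.0 to 103 CPM, with 0 of 6 called, and none of either list was at 0. Their part in the result was not tested.

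With Gnas KD falls were called in all 5 complexes as well, and the direct comparison with Gcgr KD called a single gene. With Gnas KD 18 of 87 genes fell and 0 rose, beside 8.32% and 6.81% of all genes, and the median was -0.163. By complex the falls numbered 8 of 36 in complex I, 2 of 4 in complex II, 2 of 8 in complex III, 1 of 14 in complex IV and 5 of 17 in complex V. Ndufc2, an accessory subunit of the complex I membrane arm, was at 24.2 to 34.1 CPM (median 28.7) with Gnas KD and 40.4 to 53 CPM (median 43.6) in Control, without overlap, a change of -0.60 ± 0.07 (adjusted p = 4.01e-08). It was also the gene that differed between Gnas KD and Gcgr KD (-0.34 ± 0.07, adjusted p = 0.00154), where 1 of 87 was lower and 0 higher beside 3.46% and 2.36% of all genes. Sdhd, a membrane anchor of complex II, ranged over 91.3 to 109 CPM (median 96.7) against 111 to 132 CPM (median 116), again with no overlap (-0.29 ± 0.06, adjusted p = 0.000606). Atp5b fell by 0.14 ± 0.05 and Atp5c1, the gamma subunit of the rotating stalk, by 0.18 ± 0.05 on the log2 scale (adjusted p = 0.0304 and 0.008), both without overlap. The fall of Uqcrfs1 was -0.32 ± 0.06 (adjusted p = 3.62e-05) and that of Ndufs1 -0.21 ± 0.06 (adjusted p = 0.0096). Atp5a1 missed the threshold at -0.13 ± 0.05 (adjusted p = 0.0536), and so did Ndufv1, Sdha, Sdhb, Uqcrc1, Cox4i1 and Cox5a, between -0.16 and -0.08. With Gnas KD, 34 genes fell in the fit of those groups alone, and 34 without the libraries that stood apart. Over all genes, calls in either direction were 2337 and 2536 in these fits, beside 2055 in the main fit. None of the libraries left out was in Gnas KD or Control, and the median was -0.164 without them. Cholangiocyte markers summed to 54.6 to 262 CPM with Gnas KD (2 of 6 rose) and the 6 stellate cell markers to 239 to 404 CPM against 200 to 321 CPM in Control (2 of 6 rose), while 1 of 6 hepatocyte markers fell. Their part in the result was not tested.

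PKA KD lowered more of these genes than it raised. Of 87 genes 22 fell and 2 rose, shares that stand beside 14.8% and 17.7% of all genes, and the median was -0.08. That median was -0.15 without PKA KD replicate 3, where 30 fell, and -0.17 without all libraries that stood apart. Complex I held 13 of the falls. Ndufc1 ranged over 4.67 to 13.1 CPM (median 6.47) with PKA KD and 11.3 to 15.9 CPM (median 13.3) in Control, a change of -0.88 ± 0.12 (adjusted p = 5.04e-08). Ndufb9 was at 76.1 to 163 CPM (median 91.3) against 127 to 175 CPM (median 143) (-0.58 ± 0.09, adjusted p = 1.98e-06). Their groups overlapped through replicate 3, which was the highest PKA KD library for both, and without it both falls remained called (adjusted p = 8.67e-11 for Ndufc1 and 4.72e-10 for Ndufb9, whose change was -0.69 ± 0.08). Ndufc2 fell by 0.42 ± 0.07, with groups that did not overlap (adjusted p = 1.09e-05), and Ndufb6 by 0.40 ± 0.10 (adjusted p = 0.00156). The core subunit Ndufs3 changed by -0.33 ± 0.06 (adjusted p = 2.86e-05) and the accessory subunit Ndufa9 by -0.30 ± 0.05 (adjusted p = 2.37e-05).

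Outside complex I, Atp5md fell, ranging over 15.3 to 39 CPM (median 19.1) against 23.1 to 35.3 CPM (median 27.7) (-0.46 ± 0.12, adjusted p = 0.00152). Atp5o, which joins the stator to the catalytic head of complex V, ranged over 75.2 to 138 CPM (median 85) against 95.7 to 126 CPM (median 111) (-0.33 ± 0.08, adjusted p = 0.00085). Uqcrc2, without overlap between the groups, changed by -0.32 ± 0.06 (adjusted p = 6.89e-05), Cox6c by -0.32 ± 0.08 (adjusted p = 0.00134), Cox4i1 by -0.24 ± 0.07 (adjusted p = 0.00695) and Sdha by -0.21 ± 0.06 (adjusted p = 0.00609). The rises were those of Ndufaf7, an assembly factor of complex I (0.17 ± 0.06, adjusted p = 0.0246), and of Ndufa4l2, a paralog of Ndufa4 known to be induced by hypoxia, at 1.49 to 2.74 CPM (median 2.11) against 0.986 to 2.53 CPM (median 1.39) (0.54 ± 0.16, adjusted p = 0.00594). Ndufaf7 carried fractional counts in 49 of the 50 libraries of experiment 1, and its value is uncertain. Ndufs1, Ndufv1, Uqcrfs1, Cox5a and Atp5a1 were not called, with changes between -0.05 and 0.04. Replicates 3 and 5 of PKA KD, which stood apart, also had the highest levels of Prkaca, the catalytic subunit lowered in this group, at 16.8 and 23.4 CPM beside a group median of 9.44 CPM and a lowest control of 85.6 CPM. Without all libraries that stood apart 38 genes fell, and with the short-gene covariate 33 fell and 4 rose. Over all genes, calls in either direction were 4825 and 4672 in these fits, beside 4401 in the main fit. Of the 6 cholangiocyte markers 3 rose with PKA KD (38.3 to 313 CPM summed), 1 of 6 hepatocyte markers fell, and mitochondrial ribosomal RNA made up 0.0417% to 0.161% of the counts against 0.140% to 0.213% in Control. Their part in the result was not tested.

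**Figure D2:**
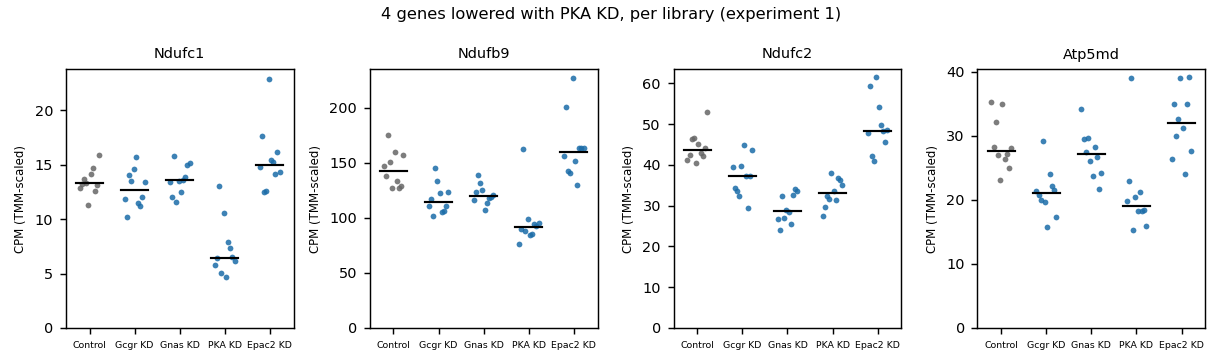
Level in TMM-scaled CPM of Ndufc1, Ndufb9, Ndufc2 and Atp5md in each library of experiment 1 (points, 10 per group) with the group median (line). PKA KD libraries of Ndufc1 lay between 4.67 and 13.1 CPM and Control between 11.3 and 15.9 CPM, and Gnas KD had the lowest median of Ndufc2, 28.7 CPM.

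With Epac2 KD few of these genes were called, all of them higher. In this group 8 of 87 genes rose and 0 fell, beside 1.82% and 2.74% of all genes, and the median was 0.157. Cox7a2l, which takes part in joining complexes III and IV into supercomplexes, was at 81.9 to 98.8 CPM (median 91.1) with Epac2 KD and 70.5 to 84 CPM (median 76.7) in Control (0.24 ± 0.05, adjusted p = 0.000229). Uqcrc1 rose by 0.22 ± 0.05 (adjusted p = 0.00339) and Uqcrfs1 by 0.22 ± 0.06 (adjusted p = 0.0103), with 9 of 10 libraries of the knockdown above the control median for each. The other rises were Ndufa8, Ndufb5, Ndufs4 and Ndufv2 of complex I, between 0.22 and 0.29, and Atp5c1 at 0.17 ± 0.05 (adjusted p = 0.023). Atp5a1 and Atp5b changed by 0.01 ± 0.05 and -0.04 ± 0.05 and were not called (adjusted p = 0.959 and 0.756). Without Epac2 KD replicate 5, in which mitochondrially encoded mRNA made up 24.6% of the counts beside a group median of 12.2%, 5 genes rose. In the fit of those groups alone 3 rose, and with the short-gene covariate 17.

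Set directly against each other, Epac2 KD and Gcgr KD differed in most of these genes. Of 87, 65 were higher with Epac2 KD and 0 lower, beside 11.1% and 9.72% of all genes, with a median difference of 0.334 on the log2 scale against 0.093 for other short genes. All 4 subunits of complex II, 27 of 36 of complex I, 6 of 8 of complex III, 12 of 14 of complex IV and 15 of 17 of complex V were higher, and 1 of the 8 assembly factors (Ndufaf6, 0.32 ± 0.10, adjusted p = 0.0129). For Uqcrfs1, at 125 to 184 CPM (median 154) with Epac2 KD and 97.9 to 124 CPM (median 113) with Gcgr KD, no library of either group reached the other (0.46 ± 0.06, adjusted p = 1.09e-08). Uqcrc1 (0.39 ± 0.05, adjusted p = 2.46e-08) was separated in the same way. With the short-gene covariate 54 were higher and 0 lower.

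PKA KD and Gcgr KD differed in both directions. Of 87 genes 14 were higher and 4 lower with PKA KD than with Gcgr KD, beside 17.3% and 14.4% of all genes, and with the short-gene covariate 15 and 13. The share that was higher was near the background and the share that was lower was below it. Without PKA KD replicate 3, 14 were higher and 9 lower, and the median difference, 0.11 with all libraries, was 0.04. Ndufc1 was lower in PKA KD than in Gcgr KD (-0.80 ± 0.12, adjusted p = 4.91e-07), Gnas KD (-0.89 ± 0.12, adjusted p = 4.14e-08) and Epac2 KD (-1.08 ± 0.12, adjusted p = 2.22e-10), comparisons that share the PKA KD libraries. Ndufb9 was lower than in Gcgr KD by 0.28 ± 0.09 (adjusted p = 0.0163). Conversely Ndufa10, an accessory subunit of the membrane arm, was higher than in Gcgr KD, at 157 to 184 CPM (median 169) against 123 to 151 CPM (median 136) with no overlap (0.31 ± 0.06, adjusted p = 3.52e-05), and so were Uqcrfs1 (0.21 ± 0.06, adjusted p = 0.00202) and Atp5a1 (0.22 ± 0.05, adjusted p = 0.000399). Against Gnas KD 15 genes were higher and 6 lower, beside 18.4% and 15.6% of all genes (14 and 15 with the covariate), and against Epac2 KD 4 were higher and 49 lower, beside 18.4% and 17.3%.

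**Figure D3:**
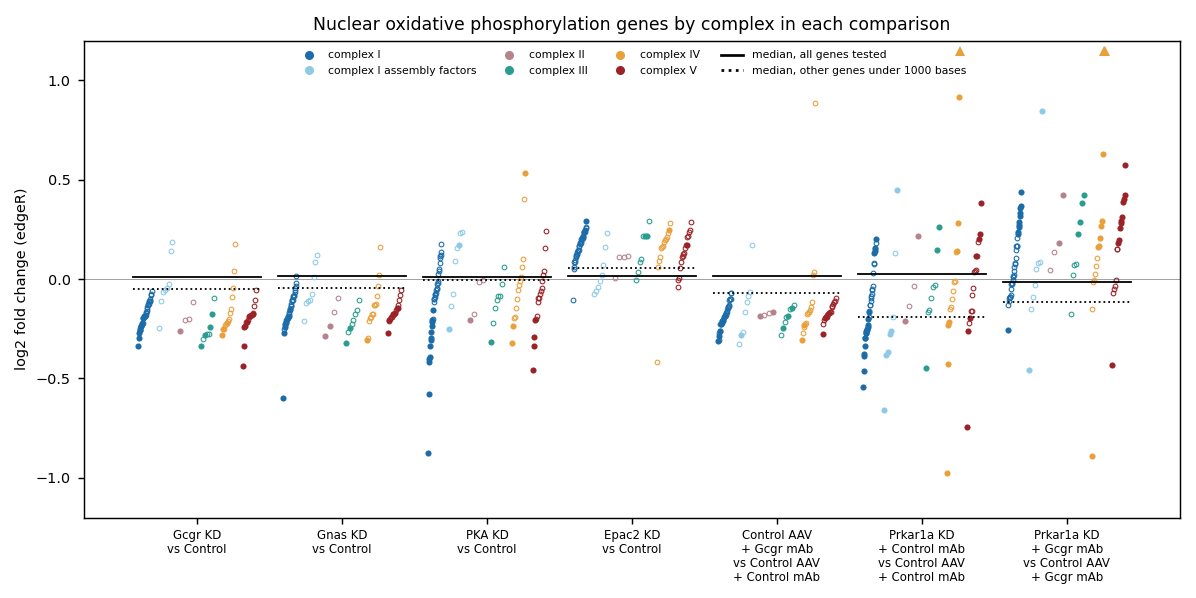
Log2 fold change (edgeR) of each tested gene in 7 comparisons, in columns by complex (colour), filled where called. Triangles at the upper edge stand for Cox6b2 (2.41 and 1.28) and Cox7a1 (1.40), solid lines for the median of all genes tested and dotted lines for that of other genes with exons under 1000 bases. Gcgr KD, Gnas KD and Gcgr mAb points lie mostly under the solid line, Epac2 KD points mostly over it, and the Prkar1a KD columns spread to both sides.

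The antibody against the receptor, in mice given the control AAV, lowered transcripts of all 5 complexes as well. With Gcgr mAb 18 of 88 genes fell and 0 rose, beside 5.27% and 2.92% of all genes, with a median of -0.178. Uqcrfs1 ranged over 108 to 151 CPM (median 140) against 144 to 182 CPM (median 164) (-0.25 ± 0.05, adjusted p = 0.0015), and all 10 antibody libraries were below the control median. Cox7a2, the subunit 7a isoform of most tissues, fell by 0.31 ± 0.07 (adjusted p = 0.00178), Ndufa10 by 0.31 ± 0.07 (adjusted p = 0.00428) and the assembly factor Ndufaf6 by 0.28 ± 0.07 (adjusted p = 0.011). Atp5b changed by -0.17 ± 0.05 (adjusted p = 0.0204), Ndufv1 by -0.19 ± 0.06 (adjusted p = 0.0342), Uqcrc1 by -0.19 ± 0.05 (adjusted p = 0.0158) and Cox4i1 by -0.23 ± 0.07 (adjusted p = 0.0395). Ndufs1, Sdha, Sdhb, Cox5a and Atp5a1 were not called, at -0.18 to -0.14.

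The number called with the antibody rested on few libraries. Leaving out Control AAV + Gcgr mAb replicate 3, which held pancreatic transcripts (Prss2 at 84.6 CPM, beside 0.297 CPM or less in the other libraries of that experiment), gave 44 falls. Leaving out replicate 2 of that group gave 9, and leaving out Control AAV + Control mAb replicate 2 or replicate 10 gave 8 and 9. Calls in either direction over all genes were 1332, 1137, 795 and 1034 in these fits, in that order, beside 1052 with all libraries. With all of the libraries that stood apart left out, 9 fell and 0 rose, and with the short-gene covariate 32 fell and 0 rose. Scaling by upper quartile, no filter on low counts, and the fit of those groups alone gave 8, 8 and 4 falls. In the comparison with all libraries 84 of the 88 fitted changes were below 0, the others being Ndufaf4, Cox6b2, Cox7a2l and Ndufa4l2. Hepatocyte markers summed to 56916 to 82262 CPM with Gcgr mAb against 69181 to 79619 CPM, with 0 of 6 called, and cholangiocyte markers to 38.8 to 171 CPM against 31.3 to 59.4 CPM, with 0 of the 5 tested called. Their part in the result was not tested.

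Prkar1a KD, which the study used to activate PKA, moved these genes in both directions. With the control antibody 16 of 88 rose and 30 fell, beside 29.3% and 26.9% of all genes. The share that rose was below the background and the share that fell was somewhat above it. The median was -0.104, while other short genes had a median of -0.193. With the short-gene covariate 40 rose and 10 fell, and without the libraries that stood apart 23 rose and 17 fell, so no direction is given for the genes as a whole. Without Control AAV + Control mAb replicate 2 or replicate 10 alone, 19 fell in each case. Hepatocyte markers moved in this comparison too: of 6 (Alb, Apoa1, Ttr, Hnf4a, Cps1 and Serpina1a) 3 rose and 3 fell, their summed level was 29544 to 42216 CPM with Prkar1a KD against 69181 to 79619 CPM, and 0 of them were at 0. All 4 tested erythroid markers fell (49.7 to 458 CPM summed over 5 against 414 to 1152 CPM), as did the 1 adipocyte marker tested (5 markers summed to 5.08 to 7.85 CPM against 9.52 to 20.3 CPM, with 1 of the 5 at 0 in the controls). Mitochondrial ribosomal RNA made up 0.720% to 1.62% of the counts against 0.441% to 0.710%, without overlap. The part of these shifts in the results was not tested.

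For 4 of the called genes the groups did not overlap, a number that was not set against all genes tested. Atp5b rose, ranging over 959 to 1144 CPM (median 1069) against 779 to 859 CPM (median 812) (0.38 ± 0.05, adjusted p = 1.35e-08). Ndufaf6, needed for assembly of complex I, rose, ranging over 9.26 to 12.5 CPM (median 11.5) against 6.87 to 9.09 CPM (median 8.62) (0.45 ± 0.07, adjusted p = 1.24e-06). Atp5g3, a c subunit gene, fell, ranging over 190 to 227 CPM (median 198) against 301 to 373 CPM (median 343) (-0.74 ± 0.06, adjusted p = 4.85e-14). Across the alternatives computed, all called, these changes ranged from 0.32 to 0.39 (Atp5b), 0.43 to 0.49 (Ndufaf6) and -0.77 to -0.67 (Atp5g3). The fourth, Cox6b2, was near 0 throughout and is described with the isoforms. Other falls included the assembly factors Ndufaf3 (-0.66 ± 0.12, adjusted p = 1.04e-05) and Ndufaf5 (-0.37 ± 0.11, adjusted p = 0.0059), the complex III subunit Uqcrq (-0.45 ± 0.11, adjusted p = 0.000616) and Ndufb3 (-0.46 ± 0.08, adjusted p = 1.27e-05). Other rises included the complex III hinge protein Uqcrh (0.26 ± 0.07, adjusted p = 0.00251), Cox7a2 (0.28 ± 0.07, adjusted p = 0.000331) and Sdhd (0.22 ± 0.05, adjusted p = 0.000297).

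Core subunits divided. Ndufs1 and Ndufv1 rose by 0.16 ± 0.07 and 0.14 ± 0.06 (adjusted p = 0.0445 and 0.0355) and Uqcrfs1 by 0.15 ± 0.05 (adjusted p = 0.0155), whereas Sdha fell by 0.21 ± 0.08 (adjusted p = 0.0151). Sdhb, Uqcrc1, Cox4i1, Cox5a and Atp5a1 were not called, between -0.14 and 0.12, though Cox4i1 and Cox5a were called as higher with the short-gene covariate (0.15 ± 0.04 and 0.15 ± 0.05, adjusted p = 0.000828 and 0.0101). By class, the assembly factors had 1 rise and 5 falls of 8, complex I 4 and 16 of 36, and complex V 4 and 3 of 17. The shares over all genes were 29.3% and 26.9%, and both shares of complex V were below these. Complexes II, III and IV are not listed here. Reads of Ndufs5, Ndufa7, Ndufaf7 and Cox7c carried fractional counts in many libraries (34, 18, 40 and 40 of 40 in experiment 2), as happens where reads are shared with near-identical copies, and their values are uncertain.

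The c subunit genes moved apart. Atp5g1, Atp5g2 and Atp5g3 encode the same mature protein, the c subunit that forms the rotor ring of complex V, behind different import sequences. With Prkar1a KD and the control antibody, Atp5g1 rose, ranging over 102 to 129 CPM (median 117) against 83.2 to 134 CPM (median 94.8) (0.20 ± 0.09, adjusted p = 0.0458), Atp5g2 was measured at 81.1 to 97.8 CPM (median 88.1) against 74.5 to 127 CPM (median 89.5) and was not called (-0.08 ± 0.08, adjusted p = 0.406), and Atp5g3 fell as given above. With the short-gene covariate Atp5g2 was called as higher (0.14 ± 0.04, adjusted p = 0.00369). Of the level per kilobase of the family, Atp5g3 made up 62.4% to 69.5% (median 65.5%) with Prkar1a KD and 71.9% to 79.4% (median 76.4%) without it, ranges that did not overlap. The family's summed level was 394 to 463 CPM per kb against 534 to 717 CPM per kb, also without overlap. Both rest on the GENCODE exon lengths, 4912 bases for Atp5g1, 731 for Atp5g2 and 724 for Atp5g3, and a shorter length for Atp5g1 would raise its share. Under Gcgr mAb the Atp5g3 share was 64.8% to 69.4% with Prkar1a KD and 69.2% to 78.8% with the control AAV. In experiment 1 Atp5g3 was not called in any knockdown against Control, and its median share stayed between 72.1% (Gnas KD) and 74.4% (Gcgr KD). Atp5g2 fell by 0.24 ± 0.07 with Gcgr KD (adjusted p = 0.0426) and by 0.29 ± 0.08 with PKA KD (adjusted p = 0.00185), and Atp5g1 was higher with PKA KD than with Gcgr KD, without overlap (0.33 ± 0.08, adjusted p = 0.00181).

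**Figure D4:**
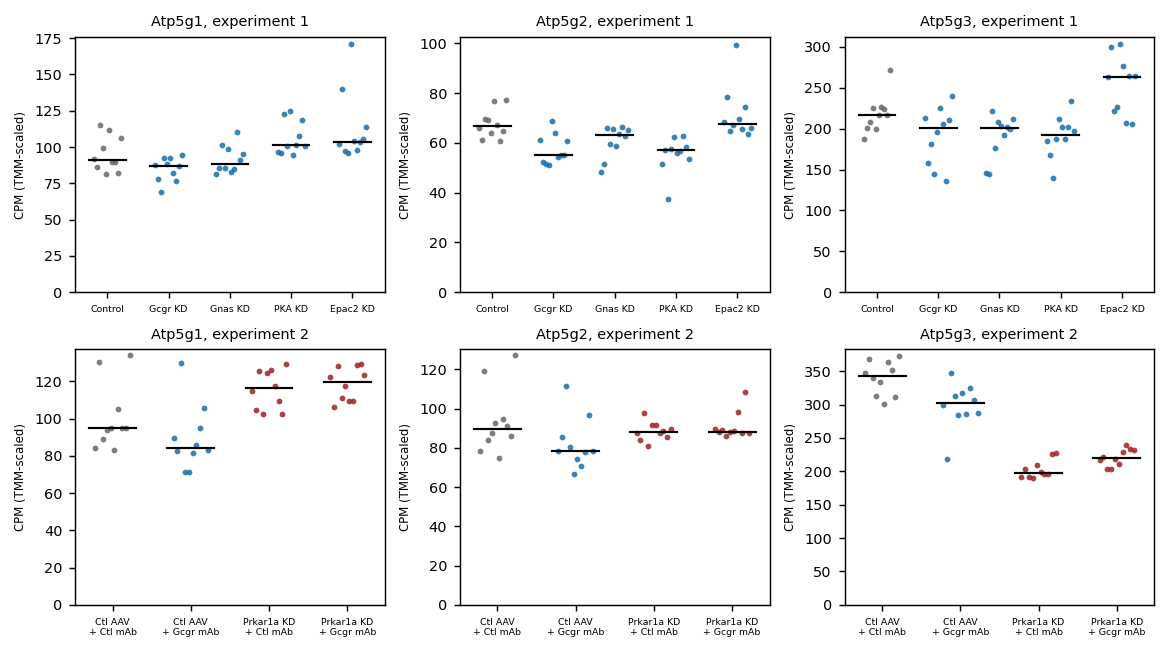
Level in TMM-scaled CPM of the c subunit genes Atp5g1, Atp5g2 and Atp5g3 in each library (points, 10 per group) with the group median (line), for both experiments. Atp5g3 in the Prkar1a KD + Control mAb group lay between 190 and 227 CPM, below all Control AAV + Control mAb libraries at 301 to 373 CPM, while the Atp5g1 median was 117 CPM against 94.8 CPM.

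The promoters of these 3 genes are shown because their products are the same protein and their transcripts moved apart. Each runs from 250 bases before to 50 bases after the RefSeq start on GRCm38.p6, 5′ to 3′ on the gene's strand, with capitals on matches to the searched motifs.
Atp5g1 (chr11:96075582-96075881, minus strand): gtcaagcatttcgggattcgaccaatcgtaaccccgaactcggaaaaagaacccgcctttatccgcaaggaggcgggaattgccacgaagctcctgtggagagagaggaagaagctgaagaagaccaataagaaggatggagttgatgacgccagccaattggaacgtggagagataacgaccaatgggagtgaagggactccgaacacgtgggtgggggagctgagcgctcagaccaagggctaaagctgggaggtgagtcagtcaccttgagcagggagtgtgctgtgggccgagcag
Atp5g2 (chr15:102670998-102671297, minus strand): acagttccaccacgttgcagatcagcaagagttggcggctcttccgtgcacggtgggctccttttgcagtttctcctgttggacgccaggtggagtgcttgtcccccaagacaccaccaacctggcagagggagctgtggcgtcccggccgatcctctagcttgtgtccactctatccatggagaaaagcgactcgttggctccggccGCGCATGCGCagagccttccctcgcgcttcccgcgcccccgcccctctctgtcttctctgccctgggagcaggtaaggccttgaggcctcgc
Atp5g3 (chr2:73911277-73911576, minus strand): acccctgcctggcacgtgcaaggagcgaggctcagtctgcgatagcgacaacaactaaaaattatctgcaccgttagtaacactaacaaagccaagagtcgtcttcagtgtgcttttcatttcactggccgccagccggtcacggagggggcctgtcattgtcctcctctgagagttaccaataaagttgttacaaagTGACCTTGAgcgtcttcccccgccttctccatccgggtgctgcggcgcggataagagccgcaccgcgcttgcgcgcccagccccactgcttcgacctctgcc
The capitals in Atp5g2 are overlapping matches to the NRF1 core GCGCATGC on both strands, those in Atp5g3 a match to the ERR response element TCAAGGTCA on the other strand, and Atp5g1 had no match to any of the 5 motifs in this window.

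Over the 76 genes with such a window, the NRF1 core was found in 12 (15.8%, against 3.94% of the 17492 protein-coding genes in the table), the ETS core CCGGAAG bound by GABP in 19 (25.0% against 12.9%), the YY1 core AAGATGGCG in 8 (10.5% against 2.14%), the full cAMP response element TGACGTCA in 4 (5.26% against 2.54%) and the ERR element in 2 (2.63% against 0.377%). Both strands were searched. The cAMP response element was found in Ndufa10, Ndufa11, Ndufb2 and Uqcrfs1, and the ERR element in Sdhd and Atp5g3. With Prkar1a KD and the control antibody the genes with a cAMP response element changed by -0.38 ± 0.07 (Ndufa10), -0.09 ± 0.10 (Ndufa11), -0.24 ± 0.09 (Ndufb2) and 0.15 ± 0.05 (Uqcrfs1), and those with an ERR element by 0.22 ± 0.05 (Sdhd) and -0.74 ± 0.06 (Atp5g3), so that both sets held genes on either side of 0. A match is a description of the letters, not a site shown to be bound.

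Tissue isoforms moved at low levels. Cox7a1 rose, ranging over 1.5 to 2.88 CPM (median 1.98) against 0.712 to 1.76 CPM (median 1.07) with Prkar1a KD and the control antibody (0.91 ± 0.21, adjusted p = 0.00039). Under Gcgr mAb it was 0.947 to 4.94 CPM (median 2.33) with Prkar1a KD against 0.451 to 1.27 CPM (median 0.899) (1.40 ± 0.22, adjusted p = 9.14e-07). Prkar1a KD + Gcgr mAb replicate 2 held striated muscle transcripts: the summed level of 6 muscle markers reached 553 CPM there beside a group median of 0.0522 CPM, Acta1 was at 172 CPM, and it had the highest Cox7a1, Cox6a2 (7.92 CPM) and Cox8b (5.97 CPM) of the experiment. Without that library the rise of Cox7a1 under Gcgr mAb was 1.25 ± 0.20 (adjusted p = 2.52e-06). In Prkar1a KD + Control mAb the muscle markers summed to 0.277 CPM at most, with 2 of 6 at 0 in all its libraries. Cox6b2 was detected at 0.314 to 0.9 CPM (median 0.657) with Prkar1a KD and 0 to 0.284 CPM (median 0.0732) without, groups that did not overlap and that rest on a mean of 5.95 counts per library over the experiment, and the fitted change was 2.41 ± 0.47 (adjusted p = 2.89e-05). Ndufa4l2 went the other way, at 0.386 to 0.815 CPM (median 0.581) against 0.534 to 2.27 CPM (median 1.02) (-0.98 ± 0.24, adjusted p = 0.000658), while its paralog Ndufa4 changed by -0.10 ± 0.08 and was not called (adjusted p = 0.293). Of the other pairs, Cox6a1 fell (-0.43 ± 0.11, adjusted p = 0.00111), and Cox6b1, Cox7b and Cox8a were not called (-0.14 ± 0.08, 0.14 ± 0.08 and -0.15 ± 0.09). With the short-gene covariate Ndufa4 (0.12 ± 0.04, adjusted p = 0.019) and Cox8a (0.12 ± 0.04, adjusted p = 0.0128) were called as higher.

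When the receptor was blocked, Prkar1a KD raised these genes more often than it lowered them. In the presence of Gcgr mAb 35 of 88 rose and 4 fell, beside 26.5% and 26.6% of all genes, with a median of 0.106 against -0.114 for other short genes. Rises numbered 10 of 36 in complex I, 2 of 4 in complex II, 4 of 8 in complex III, 8 of 15 in complex IV and 10 of 17 in complex V. The share in complex I was near the 26.5% of all genes. Atp5b was at 1020 to 1139 CPM (median 1061) against 577 to 800 CPM (median 737) (0.57 ± 0.05, adjusted p = 5.62e-13), and Atp5a1 at 851 to 952 CPM (median 913) against 488 to 811 CPM (median 749) (0.31 ± 0.06, adjusted p = 1.76e-05). Both were among the called genes whose groups did not overlap, as were Ndufaf6, Sdhd, Uqcrfs1, Cox7a2 and Atp5pb. How many of all genes tested were separated in this way was not counted. Ndufaf6 rose by 0.85 ± 0.07 (adjusted p = 5.49e-13), Cox7a2 by 0.63 ± 0.07 (adjusted p = 1.61e-10) and Sdhd by 0.42 ± 0.05 (adjusted p = 2.17e-09). The falls were Atp5g3 (-0.43 ± 0.06, adjusted p = 4.36e-08), Ndufb3, Ndufaf3 and Ndufa4l2. Sdha and Sdhb were not called (0.05 ± 0.08 and 0.14 ± 0.07). With the short-gene covariate 63 rose and 4 fell. Summed hepatocyte markers were 25512 to 52601 CPM with Prkar1a KD and 56916 to 82262 CPM without it, with 3 of 6 called as higher and 3 as lower.

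Within Prkar1a KD the antibody had no called effect. Of 88 genes 0 rose and 0 fell, beside 0 of all 12847, by edgeR, and 0 by DESeq2 or limma-voom. At an unadjusted p under 0.05, 473 of all genes were higher and 371 lower, and of the 88 genes 2 were higher and 0 lower: Ndufaf7 (0.19 ± 0.07) and Atp5g3 (0.12 ± 0.06), with adjusted p of 0.641 and 0.755. Atp5b, for example, was 1020 to 1139 CPM (median 1061) with Gcgr mAb and 959 to 1144 CPM (median 1069) without (0.02 ± 0.05, adjusted p = 0.972). Against the group with neither treatment, Prkar1a KD with Gcgr mAb gave 18 rises and 13 falls, beside 25.9% and 24.2% of all genes, with Atp5g3 at -0.62 ± 0.06 (adjusted p = 8.39e-12) and Atp5b at 0.40 ± 0.05 (adjusted p = 6.12e-09). The median was -0.076. With the short-gene covariate 40 rose and 9 fell (median 0.09), and without the libraries that stood apart 27 rose and 8 fell (median 0.05), so no direction is given for the genes as a whole here either.

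The difference itself, the effect of Prkar1a KD under Gcgr mAb minus that under the control antibody, was tested as an interaction. It was called for 8 of 88 genes, all of them positive, beside 2.74% of all genes positive and 1.34% negative. Among them were Ndufa10 (0.39 ± 0.10, adjusted p = 0.0231), the assembly factors Ndufaf6 (0.40 ± 0.10, adjusted p = 0.0176) and Ndufaf7 (0.36 ± 0.10, adjusted p = 0.0355), Uqcrc1 (0.26 ± 0.07, adjusted p = 0.0358), Uqcrfs1 (0.28 ± 0.07, adjusted p = 0.0223), Cox7a2 (0.34 ± 0.09, adjusted p = 0.0266) and Atp5g3 (0.31 ± 0.08, adjusted p = 0.0231). Ndufaf7 carried fractional counts, as given above, and its value is uncertain. The same contrast read the other way is the antibody's effect with Prkar1a KD minus its effect with the control AAV. All 88 genes had a median of 0.216, with other short genes at 0.128. Without Control AAV + Gcgr mAb replicate 3, 16 genes were called, and with the short-gene covariate 15. Upper quartile scaling and no filter on low counts each gave 5, and leaving out Control AAV + Control mAb replicate 2 or 10, or Prkar1a KD + Gcgr mAb replicate 2, gave 6 in each case.

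The values of these genes differed in kind. Uqcrfs1 was lowered by the antibody in control livers, as given above, and was 175 to 197 CPM (median 184) with Gcgr mAb and 164 to 206 CPM (median 179) with the control antibody once Prkar1a was knocked down. Cox7a2 was 167 to 225 CPM (median 180) and 159 to 206 CPM (median 182) in the same groups. Both were higher in either Prkar1a KD group than in Control AAV + Control mAb. Ndufa10, by contrast, was lowered by Prkar1a KD under the control antibody (-0.38 ± 0.07, adjusted p = 2.82e-05) and by the antibody alone, and its change with Prkar1a KD under Gcgr mAb was 0.01 ± 0.07 (adjusted p = 0.897). Atp5g3 was lowered by Prkar1a KD under either antibody, by less under Gcgr mAb.

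**Figure D5:**
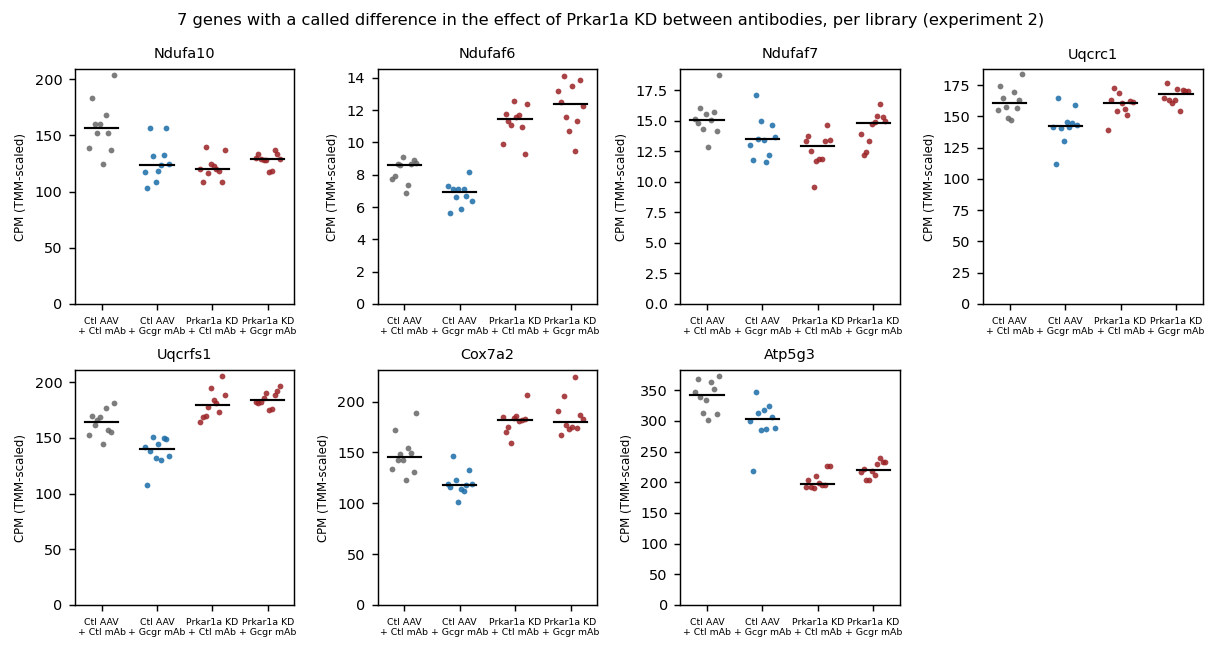
Level in TMM-scaled CPM of 7 genes with a called interaction in each library of experiment 2 (points, 10 per group) with the group median (line); Ctl stands for Control. Uqcrfs1 had a median of 140 CPM in Control AAV + Gcgr mAb and of 164 CPM in Control AAV + Control mAb, against 184 CPM in Prkar1a KD + Gcgr mAb.

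Ndufa10 and Uqcrfs1, with opposite changes under Prkar1a KD and a called interaction each, both hold the full cAMP response element. Their windows are shown with the element in capitals, from the same source and build, 5′ to 3′ on the gene's strand.
Ndufa10 (chr1:92473709-92474008, minus strand): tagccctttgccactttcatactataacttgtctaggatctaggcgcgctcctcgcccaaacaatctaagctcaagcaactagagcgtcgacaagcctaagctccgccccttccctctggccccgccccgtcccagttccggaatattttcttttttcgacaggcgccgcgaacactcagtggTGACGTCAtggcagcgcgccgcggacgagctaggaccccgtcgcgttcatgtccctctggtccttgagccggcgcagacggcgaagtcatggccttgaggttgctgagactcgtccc
Uqcrfs1 (chr13:30545267-30545566, minus strand): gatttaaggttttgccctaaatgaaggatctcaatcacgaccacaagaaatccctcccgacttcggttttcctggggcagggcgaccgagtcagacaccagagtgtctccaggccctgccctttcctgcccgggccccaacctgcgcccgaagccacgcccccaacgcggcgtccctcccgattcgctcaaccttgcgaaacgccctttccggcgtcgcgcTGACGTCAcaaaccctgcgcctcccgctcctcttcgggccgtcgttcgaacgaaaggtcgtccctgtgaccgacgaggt
Of the 8 genes 6 had a window, and these were the only ones of the 6 with that element, found in 4 of all 76 windows. Ndufa11 and Ndufb2, which also hold it, had no called interaction. Any part of the element in these changes was not tested.

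Other mitochondrial gene lists, and the cytosolic ribosomal proteins, were counted in the same fits. With Gcgr mAb 9 of 13 tricarboxylic acid cycle genes fell, beside 5.27% of all genes, among them Fh1, which encodes fumarase (-0.53 ± 0.06, adjusted p = 2.16e-07), and 8 of 13 had a called positive interaction, beside 2.74% of all genes (Fh1, 0.55 ± 0.09, adjusted p = 0.000154). In ubiquinone synthesis 4 of 13 fell with Gcgr mAb, Coq9 by 0.29 ± 0.05 (adjusted p = 5.06e-05). With Prkar1a KD under the control antibody 1 of these 13 rose and 4 fell, and their summed level was 252 to 323 CPM against 391 to 510 CPM, without overlap. The 77 cytosolic ribosomal protein genes had a median of -0.012 with Gcgr mAb, and 47 of them rose and 3 fell with Prkar1a KD under the control antibody, beside 29.3% and 26.9% of all genes. Of 78 mitochondrial ribosomal protein genes 8 fell with Gcgr KD, 7 with Gnas KD and 22 with PKA KD, beside 4.33%, 8.32% and 14.8% of all genes. Of the 13 subunits encoded by mitochondrial DNA, 1 fell with Gcgr KD (CYTB, -0.56 ± 0.18, adjusted p = 0.0422) and 4 with PKA KD (among them ND1, -0.41 ± 0.14, adjusted p = 0.023), and 3 rose and 1 fell with Prkar1a KD under the control antibody (COX1, -0.56 ± 0.13, adjusted p = 0.000257), shares that are below those of all genes in that comparison.

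Of 16 tested regulators of these genes 11 rose and 2 fell with Prkar1a KD under the control antibody, beside 29.3% and 26.9% of all genes. The summed level of all 17 listed was 486 to 560 CPM against 537 to 838 CPM, ranges that overlap at their ends only, with Ppara, a nuclear receptor of fatty acid oxidation, at 172 to 234 CPM (median 193) against 308 to 524 CPM (median 385) (-1.06 ± 0.12, adjusted p = 4.91e-10). Ppargc1a, a coactivator that PKA signalling is known to induce, rose, ranging over 22.1 to 57.1 CPM (median 39.4) against 7.34 to 15.9 CPM (median 10.5) without overlap (1.76 ± 0.17, adjusted p = 1.36e-11). Esrra, its partner nuclear receptor, rose by 0.80 ± 0.09 (adjusted p = 5.73e-10), Nrf1 by 0.47 ± 0.09 (adjusted p = 1.02e-05) and Gabpa by 0.30 ± 0.13 (adjusted p = 0.0485), whereas Ppargc1b fell by 0.49 ± 0.18 (adjusted p = 0.0176). With PKA KD 1 of 16 rose and 4 fell, beside 17.7% and 14.8% of all genes, and the summed level was 366 to 511 CPM against 542 to 811 CPM, without overlap. Ppargc1a was also higher with PKA KD, at 9.66 to 16.2 CPM (median 12.4) against 6.79 to 10.7 CPM (median 8.54) (0.51 ± 0.14, adjusted p = 0.00344), and Esrra with Epac2 KD (0.39 ± 0.12, adjusted p = 0.048). Tfam, a factor in the packaging and transcription of mitochondrial DNA, fell with Gnas KD (-0.27 ± 0.05, adjusted p = 7.57e-05), PKA KD (-0.17 ± 0.05, adjusted p = 0.00456) and Gcgr mAb (-0.14 ± 0.04, adjusted p = 0.0361). It was not called with Gcgr KD (-0.10 ± 0.05, adjusted p = 0.194).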

How the data were processed

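Liver mRNA of 90 mouse libraries was sequenced from strand-specific libraries, per the labels' protocols, with bcl2fastq 2.17, FastQC and the build GRCm38 (mm10) named in the submitters' processing notes; no source used here names the aligner or the counting program. The authors deposited expected counts per Entrez gene in one table per experiment, neither table normalized. Fractions were found in 8.69% and 8.55% of the table cells, and every value was rounded to whole numbers. Symbols and promoters came from RefSeq, and 24375 of the 24475 identifiers had a symbol. Exon lengths were those of all exons of a gene's GENCODE basic transcripts, merged.

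Each experiment was fitted on its own with edgeR 4.0.16 in R 4.3.3 (TMM scaling, filterByExpr, robust quasi-likelihood F test, all groups in one fit, Benjamini-Hochberg adjustment over all genes tested), after the procedure had been tested on simulated data. Residual degrees of freedom were 45 and 36. Levels between genes were compared per kilobase of exon. A library was said to stand apart where its root mean square deviation from its group was over 1.5 times the group's median. The same was said where its other short genes (exons under 1000 bases) were shifted by over 0.25 on the log2 scale. The short-gene covariate was each library's median difference of those genes from their mean over the experiment, group differences included. This rule, the removal of such libraries and the covariate were chosen after seeing the data. The other alternatives were other scalings, no filter, DESeq2 1.42.0, limma-voom (limma 3.58.1), a replicate block and fits of the compared groups alone.

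Named genes were 10 core subunits, paralog and isoform families, the 3 largest called changes per direction and class in each comparison with a mean log2 CPM of at least 1, and genes of other lists; any other gene named, such as those singled out because groups did not overlap, was chosen after its values were seen. One gene is counted in the totals and not reported here. The genes and lists were chosen with earlier results of these data known. Errors are the spread between libraries, which includes counting error; the latter weighs most for Cox6b2, Ndufa4l2 and Cox7a1, with means of 5.95, 14.55 and 25.82 counts per library in experiment 2. On simulated data most changes of the smallest size tried were missed, and a gene that was not called may still differ.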

Additional observations from a re-analysis of the deposited data

Results flagged for a closer look

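Of 126 groups of 10 libraries checked, 14 had a library far from the others of its group by Dixon's test, and chance flags about 1 in 20. PKA KD replicate 3 accounted for 6 of them. Its summed level of all 93 genes was 11512 CPM, and it was the highest of its group for Ndufs1 (109 CPM), Sdhb (164 CPM), Cox4i1 (324 CPM) and Cox5a (71.3 CPM). For Atp5g2 it was the lowest, at 37.3 CPM. Epac2 KD replicate 5 was the highest for Cox4i1 (478 CPM) and Atp5g2 (99.5 CPM). Control AAV + Gcgr mAb replicate 2 was the lowest for Uqcrfs1 (108 CPM), Atp5a1 (488 CPM) and Atp5g3 (218 CPM). Single genes were far from the rest in Control replicate 10 (Atp5g3, 272 CPM), Gnas KD replicate 9 (Uqcrfs1, 124 CPM) and Prkar1a KD + Control mAb replicate 10 (Cox4i1, 313 CPM).

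The effect of Prkar1a KD differed between the antibodies by the interaction test for these genes among others, given as log2 differences: Ndufa10 (0.39), Ndufaf6 (0.40), Ndufaf7 (0.36), Uqcrc1 (0.26), Uqcrfs1 (0.28), Cox7a2 (0.34) and Atp5g3 (0.31).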

How the results depend on the processing

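With Prkar1a KD under the control antibody the counts (16 rose, 30 fell) turned to 40 rises and 10 falls with the short-gene covariate and to 23 rises and 17 falls without the libraries that stood apart, while in the fit of those groups alone 9 rose. With both treatments against neither (18 rose, 13 fell), 40 rose and 9 fell with the covariate, and 27 rose and 8 fell without the libraries that stood apart. Without those libraries Gcgr KD gave 44 falls (25), Gnas KD 34 (18), PKA KD 38 (22) and Gcgr mAb 9 (18). Calls in either direction over all genes were 1474 (981), 2536 (2055), 4825 (4401) and 932 (1052), in the same order. Of the libraries left out, none was in Gnas KD or Control, and only replicate 5 was in Gcgr KD. Without that replicate alone Gcgr KD gave 27 falls, with 1047 calls over all genes. With the covariate, rises were 4 with PKA KD (2), 17 with Epac2 KD (8) and 63 with Prkar1a KD under Gcgr mAb (35), falls with Gcgr mAb were 32, PKA KD and Gcgr KD differed in 28 genes (18), and 15 interactions were called (8). In fits of the compared groups alone 34 fell with Gnas KD, 4 with Gcgr mAb and 3 rose with Epac2 KD. Upper quartile scaling and no filter each gave 8 falls with Gcgr mAb and 5 interactions. The single gene between Gnas KD and Gcgr KD became 2 with upper quartile scaling, DESeq2, limma-voom, the compared groups alone and without the libraries that stood apart, and 3 with the covariate. The cause of these moves was not tested.

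Leaving out single libraries that stood apart gave 5 rises with Epac2 KD, 8 to 44 falls with Gcgr mAb, 19 falls with Prkar1a KD under the control antibody, 8 to 12 falls with both treatments and 6 to 16 interactions. Other libraries were not left out singly. Signs reversed with the covariate for Cox6a1 between PKA KD and Gcgr KD (-0.12); for Cox4i1 (0.15), Cox5a (0.15), Ndufa4 (0.12), Cox8a (0.12), Atp5g2 (0.14), Cox6c (0.0091), Cox7c (0.0368), Atp5k (0.0288) and Atp5j (0.0222) with Prkar1a KD under the control antibody; and for Cox4i1 (0.15), Cox8a (0.11) and Atp5g2 (0.14) with both treatments.

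Replicate numbers showed no clear pairing of the samples, though this check cannot exclude a partial one. The median correlation was 0.045 and -0.005 for same-numbered libraries of experiments 1 and 2, and -0.004 and -0.008 for others. Same-numbered libraries correlated above 0.1 in 37 of 100 and 19 of 60 pairs. Of the libraries, 9 of 50 and 3 of 40 correlated best with their own number. With the replicate block 19 fell with Gnas KD, 16 with Gcgr mAb and 31 with Prkar1a KD under the control antibody, 7 interactions were called, and no count moved by more than 1.5 times.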
